A study of Mus musculus with 12 samples.

Results

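The GABA synapse and interneuron genes described here are 32 rows of the total RNA count table, listed by symbol, with earlier results of these data known, out of 49489 gene rows. The listing rule itself uses no measured value. All 32 had counts, and 28 passed the filter on low counts and were tested. The study sequenced RNA from a Gas5 pulldown (Gas5 is a noncoding transcript whose introns carry small nucleolar RNAs) in primary hippocampal neurons of mice. Hippocampi were taken at postnatal day 0 and the cells were cultured to day 16 in vitro. Total RNA libraries were titled antisense (3 libraries) or sense (3 libraries), and no other genotype, treatment or time separated these 2 groups. The labels leave unsaid which of these groups captured Gas5, what the words antisense and sense describe, and whether libraries of 1 group are separate cultures. The p-values therefore measure the spread between libraries, and that spread may be technical.

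GABA is the main inhibitory transmitter of the forebrain. It is made from glutamate by glutamic acid decarboxylases, loaded into synaptic vesicles by the transporter encoded by Slc32a1, and detected by GABA-A receptors, which are chloride channels built of several subunits, and by GABA-B receptors, which are G-protein coupled pairs of both Gabbr products. In the hippocampus it is released by interneurons, whose classes are told apart by neuropeptides, calcium-binding proteins and transcription factors. Many genes of the list are also expressed outside interneurons: receptor subunits in the principal neurons that receive GABA and in part in glia, and Sox6 in glial precursors.

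Total counts were 5774904 to 6292946 in the antisense libraries and 6478567 to 10424024 in the sense libraries, and Gas5 took 9.71% to 14.2% of the antisense counts and 32.7% to 57.1% of the sense counts. Levels are therefore given as CPM, counts scaled to a common library size, with library sizes adjusted by the trimmed mean of M values (TMM), which sets the bulk of genes level between libraries. They are not scaled to transcript length and are not compared between genes. The cultures held neurons and glia: the summed levels of 5 general neuronal markers were 720 to 904 CPM in antisense and 903 to 1110 CPM in sense, those of 6 astrocyte markers were 1119 to 1389 CPM in antisense and 1294 to 1668 CPM in sense, and those of 6 oligodendrocyte lineage markers were 318 to 341 CPM in antisense and 340 to 442 CPM in sense. Of all markers in the 7 lists only the endothelial gene Cldn5 was at 0 in a whole group, the sense libraries. In bulk RNA from a pulldown, fewer cells of a type, less RNA per cell and a lower recovery in the pulldown cannot be told apart.

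Most of the GABA and interneuron genes did not differ between antisense and sense libraries beyond the spread of the test. Of the 28 tested, 2 were lower in antisense, Reln and Gabbr2, 0 were higher and 26 did not pass (edgeR quasi-likelihood F test, Benjamini-Hochberg over all 20049 genes tested). Across all genes tested, 4.35% were lower in antisense and 18.2% were higher, so the members' 7.14% lower rests on only those 2 genes; among protein-coding genes 4.78% were lower and 9.63% higher. At an unadjusted p under 0.05, 4 members were lower and 0 higher, against 10.6% lower and 22.2% higher over all genes. The log2 fold changes of antisense minus sense ran from -0.77 to 0.72 with a median of -0.16 (signed values in parentheses below are log2 fold changes of this kind, and intervals are at 95%), against -0.01 over all genes and -0.07 over protein-coding genes. They were below 0 for 22 of the 28 members (78.6%), against 51.6% of all genes and 60.9% of protein-coding genes. This lean was not particular to the members. All tested glutamatergic (5), general neuronal (5) and astrocyte (6) markers were below 0 too, with medians of -0.33, -0.35 and -0.25. So were all 4 tested vascular markers and 4 of 6 oligodendrocyte lineage markers, but 0 of 3 microglial markers. These directions hold on the TMM scale: on library totals, which include Gas5, the median of all genes moved to 0.70, the sign turned for 21 of the 28 members, and 22 of 28 still lay below the median of all genes. For 4 members no antisense library fell within the range of sense, 3 lower in antisense and 1 higher, where 13.2% of all genes did so lower and 23.4% higher.

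**Figure D1:**
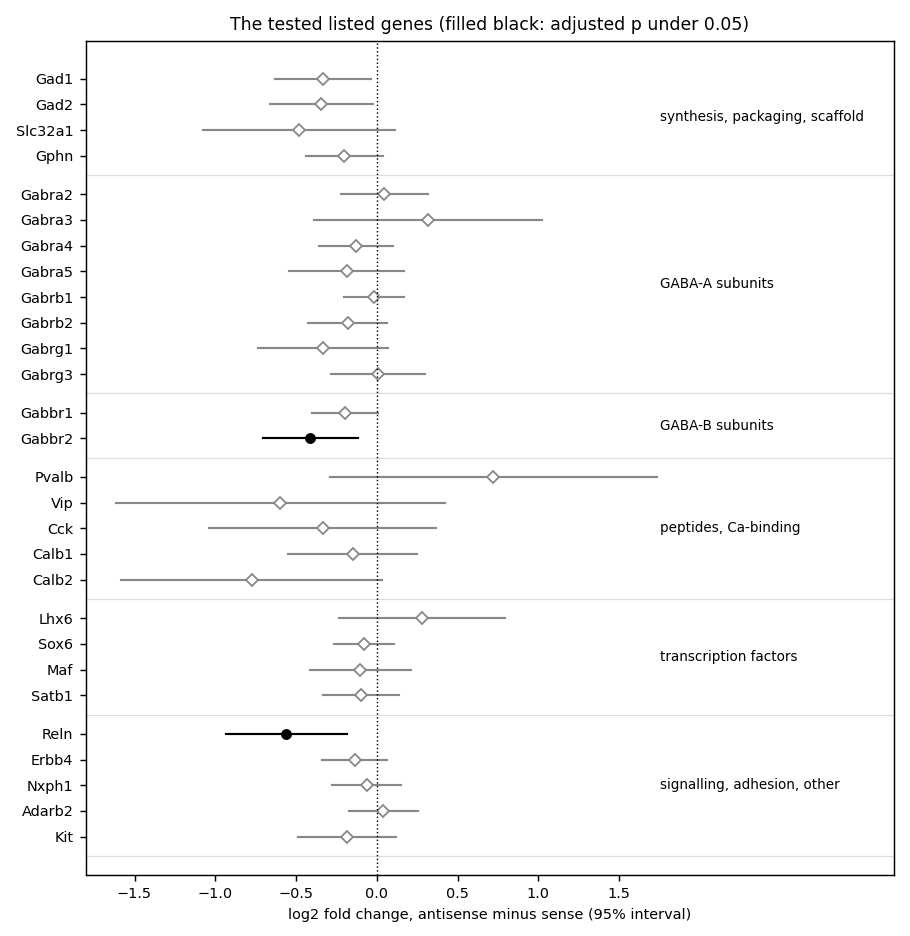
Log2 fold change (antisense minus sense, x axis) of the 28 tested genes, grouped by role from top to bottom, with the 95% interval from the edgeR fit as a line. Filled black points are Gabbr2 (-0.41) and Reln (-0.56), the 2 genes with an adjusted p under 0.05, and open diamonds are the other 26.

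None of the 4 genes that make or package GABA or anchor its receptors passed, and all 4 had log2 fold changes below 0. Gad1, which encodes the larger glutamic acid decarboxylase, stood at 81, 82.8 and 59.3 CPM in antisense replicates 1, 2 and 3, against 112.1, 81.5 and 87.5 CPM in sense replicates 1, 2 and 3. Antisense replicate 3 was the lowest of the 6 libraries and sense replicate 1 the highest, and the other 4 lay close together. The log2 fold change was -0.33 (SE 0.138; adjusted p = 0.106). Gad2, which encodes the smaller decarboxylase, averaged 27.8 ± 4.71 CPM over the antisense libraries and 35.2 ± 6.17 CPM over the sense libraries (SD, n = 3 each), and the log2 fold change was -0.34 (adjusted p = 0.12). The count ratio of Gad1 to Gad2 was 2.77, 2.62 and 2.63 in antisense and 2.65, 2.46 and 2.87 in sense, and the groups overlapped (difference in mean log2 ratio 0.01; exact permutation test, two-sided, p = 1, where the smallest p that 3 against 3 allows is 0.1). Slc32a1, the vesicular GABA transporter gene, had 35, 43 and 25 counts in antisense and 52, 30 and 35 counts in sense (log2 fold change -0.48, SE 0.278; adjusted p = 0.252). Gphn encodes gephyrin, the scaffold that anchors GABA-A receptors under inhibitory synapses. It stood at 46.3, 55.3 and 41.4 CPM in antisense and at 55.8, 53.6 and 55.2 CPM in sense. The sense libraries lay within a narrow band that antisense replicate 2 also reached, and Gphn did not pass (-0.20, SE 0.112; adjusted p = 0.232). Without antisense replicate 2 it did (-0.33, adjusted p = 0.0436).

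**Figure D2:**
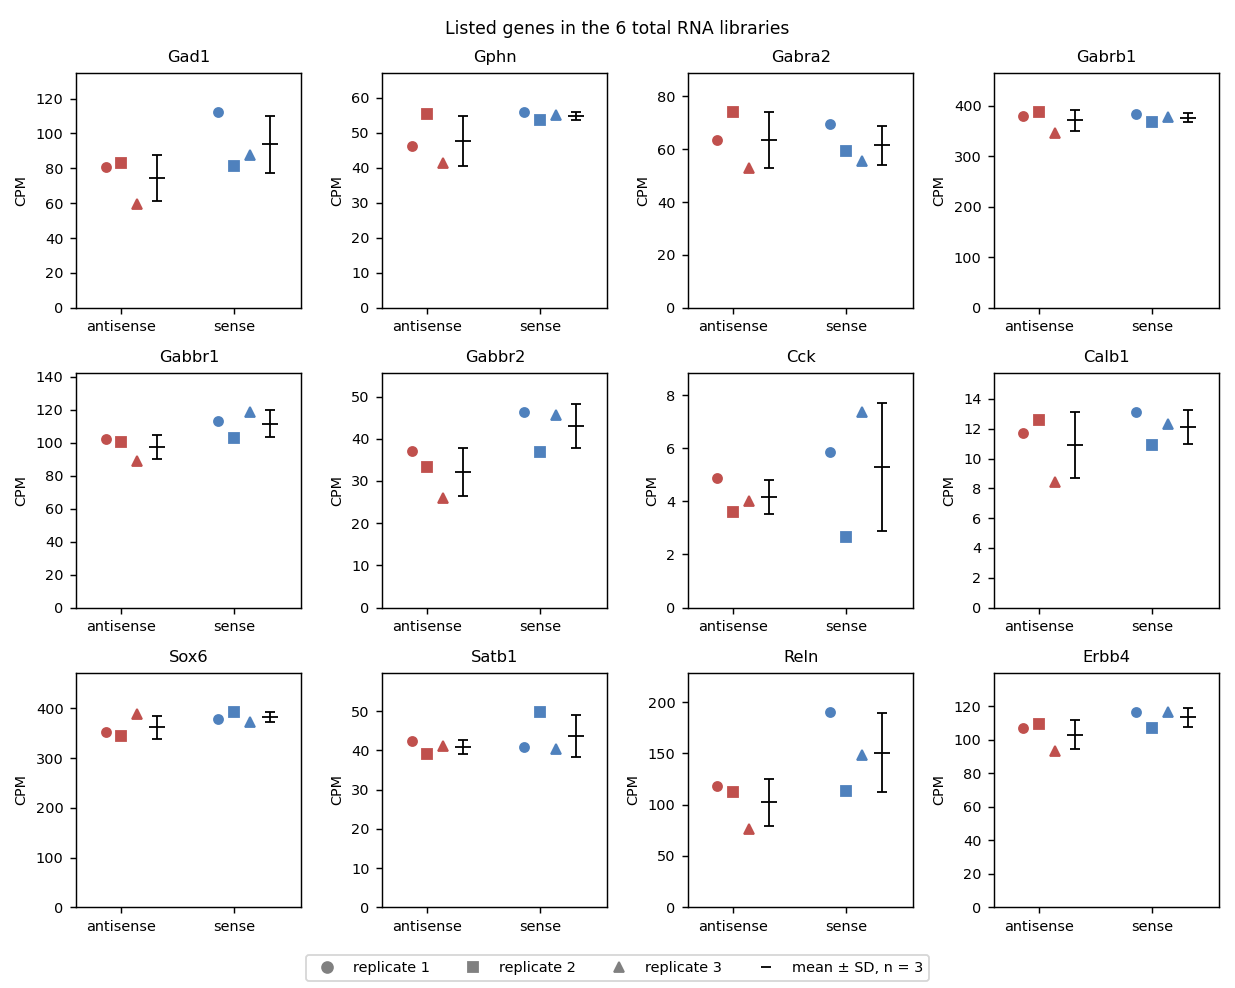
CPM on the TMM scale (y axis, from 0) of 12 genes in the 3 antisense libraries (red) and the 3 sense libraries (blue). Symbols mark replicate numbers and the black bars the mean ± SD (n = 3). Antisense replicate 3 is the lowest point for Gad1, Gphn, Gabra2, Gabrb1, Gabbr1, Gabbr2, Calb1, Reln and Erbb4, and not for Cck, Sox6 or Satb1.

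GABA-A receptor subunit genes were close to level. None of the 8 tested subunit genes passed, and their log2 fold changes ran from -0.33 to 0.32 with a median of -0.07. Gabrb1, a beta subunit gene with 2202 to 3013 counts per library, stood at 378.8, 386.9 and 346.7 CPM in antisense and 384.2, 367.2 and 377.1 CPM in sense. The groups overlapped fully, and the log2 fold change of -0.02 had a 95% interval from -0.21 to 0.16. Gabra2, an alpha subunit gene, stood at 63.5, 74.0 and 53.1 CPM in antisense and 69.7, 59.2 and 55.5 CPM in sense (0.05, interval -0.22 to 0.31). The alpha subunit gene Gabra4 had 29.7, 29.3 and 30.3 CPM in antisense and 33.7, 30.5 and 33.4 CPM in sense. Its groups did not overlap, yet the difference was small and did not pass (-0.13, SE 0.106; adjusted p = 0.442). The gamma subunit gene Gabrg1 likewise did not overlap, at 9.86, 10.5 and 7.23 CPM in antisense and 12.2, 11.1 and 11.6 CPM in sense (-0.33, SE 0.188; adjusted p = 0.239). The gamma subunit gene Gabrg3 averaged 22.5 ± 3.32 CPM over the antisense libraries and 22.4 ± 0.956 CPM over the sense libraries (SD, n = 3 each), and the log2 fold change was 0.01.

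The other subunit genes had wider errors or lay between these. Gabrb2, a beta subunit gene, averaged 29.2 ± 3.12 CPM over the antisense libraries and 33.1 ± 0.992 CPM over the sense libraries (SD, n = 3 each; -0.18, adjusted p = 0.303). Gabra5, which encodes an alpha subunit known for extrasynaptic receptors in the hippocampus, averaged 13.7 ± 1.79 CPM over the antisense libraries and 15.6 ± 2.40 CPM over the sense libraries (SD, n = 3 each; -0.19, adjusted p = 0.474). The alpha subunit gene Gabra3 had 20, 32 and 26 counts in antisense and 22, 18 and 11 in sense (0.32, interval -0.39 to 1.02). Gabrd, the delta subunit gene of tonic GABA-A receptors, had 5, 8 and 11 counts in antisense and 7, 8 and 5 in sense and was not tested. In the genome, Gabrg1, Gabra2, Gabra4 and Gabrb1 follow each other on chromosome 5 between 70751047 and 72149572 (GRCm38.p6), and Gabrg3 and Gabra5 on chromosome 7 between 56716463 and 57591016. None of these 6 genes passed.

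Of the GABA-B receptor subunit genes, Gabbr2 was lower in antisense and Gabbr1 did not pass. Gabbr1, whose product binds GABA, stood at 102.6, 100.6 and 89.0 CPM in antisense and 113.5, 102.7 and 118.7 CPM in sense. All 3 antisense libraries lay below all 3 sense libraries, by a small margin at sense replicate 2 (-0.20, SE 0.0958; adjusted p = 0.17). Gabbr2, whose product carries the G-protein coupling and brings the pair to the cell surface, stood at 37.2, 33.4 and 26.0 CPM in antisense and 46.3, 36.9 and 45.6 CPM in sense. Antisense replicate 1 lay just above sense replicate 2, so the groups overlapped. The log2 fold change was -0.41 (SE 0.137; adjusted p = 0.0423), so Gabbr2 was 1.33 times as high in sense. The call was lost on leaving out antisense replicate 2 (-0.45, adjusted p = 0.0642), antisense replicate 3 (-0.28, 0.145), sense replicate 1 (-0.37, 0.137) or sense replicate 3 (-0.38, 0.141). It was also lost in DESeq2 (-0.41, 0.0606) and limma voom (-0.42, 0.0612). The count ratio of Gabbr2 to Gabbr1 was 0.363, 0.332 and 0.293 in antisense and 0.408, 0.36 and 0.384 in sense, an overlap at 1 library (difference in mean log2 ratio -0.23; exact permutation p = 0.2).

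Reln was the gene of the list with the smallest p. It encodes reelin, a secreted glycoprotein that guides neuronal layering and, in the adult hippocampus, is made by interneurons and by remaining Cajal-Retzius cells. It stood at 117.8, 112.8 and 76.2 CPM in antisense and 190.7, 113.4 and 148.5 CPM in sense. Antisense replicate 1 exceeded sense replicate 2, antisense replicate 3 was the lowest of the 6 libraries and sense replicate 1 the highest. The log2 fold change was -0.56 (SE 0.175; adjusted p = 0.0306), so Reln was 1.47 times as high in sense. The call was lost on leaving out antisense replicate 3 (-0.39, adjusted p = 0.102), sense replicate 1 (-0.37, 0.171) or sense replicate 3 (-0.58, 0.0703). It was also lost in DESeq2 (-0.56, 0.182) and limma voom (-0.55, 0.0595). The authors' deposited table, which gives sense over antisense, lists a log2 fold change of 0.56 (adjusted p = 0.201) for Reln and of 0.42 (adjusted p = 0.0901) for Gabbr2, and no member passed there at 0.05, where 16.0% of genes with an adjusted p did. Against Gad1, Reln had count ratios of 1.45, 1.36 and 1.28 in antisense and 1.70, 1.39 and 1.70 in sense (difference in mean log2 ratio -0.22; exact permutation p = 0.2). Calb2, which encodes calretinin, a calcium-binding protein of a class of interneurons and also of Cajal-Retzius cells, had 14, 37 and 17 counts in antisense and 35, 20 and 39 in sense. Its log2 fold change was -0.77 (interval -1.58 to 0.03; adjusted p = 0.171), with antisense replicate 2 far above the other antisense libraries, and without that library it passed (-1.30, adjusted p = 0.0292).

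The bases upstream of the start sites of both passing genes are shown because these are the 2 members that passed. They are the 250 bases before the RefSeq start, read in the direction of the gene, Gabbr2 at chr4:46991715-46991964 and Reln at chr5:22344706-22344955, both on the minus strand of GRCm38.p6. Capitals mark GC boxes, the motif GGGCGG on either strand.
Gabbr2: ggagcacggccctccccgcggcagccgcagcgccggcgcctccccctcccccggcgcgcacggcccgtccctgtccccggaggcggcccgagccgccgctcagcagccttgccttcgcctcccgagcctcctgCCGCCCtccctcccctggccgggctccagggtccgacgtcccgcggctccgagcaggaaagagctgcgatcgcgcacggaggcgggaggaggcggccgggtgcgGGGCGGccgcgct
Reln: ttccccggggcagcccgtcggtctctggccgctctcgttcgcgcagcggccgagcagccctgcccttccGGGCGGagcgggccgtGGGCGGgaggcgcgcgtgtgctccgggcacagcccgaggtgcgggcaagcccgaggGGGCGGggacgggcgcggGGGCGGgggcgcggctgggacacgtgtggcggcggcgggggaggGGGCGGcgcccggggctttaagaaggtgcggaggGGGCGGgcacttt
Both windows are rich in G and C, 80.8% for Gabbr2 and 80% for Reln, against a median of 52.4% over the 32851 upstream windows of the RefSeq table, and each holds 37 CpG dinucleotides against a median of 6. GGGCGG was found 2 times in the Gabbr2 window and 6 times in the Reln window, with the copies on either strand counted, and 32.7% of all windows hold it. The letters TATAAA, searched on both strands, were in neither, and 12.4% of all windows hold them. Of the 46 windows that RefSeq lists for 28 of the 32 genes, 18 held GGGCGG and 6 held TATAAA. Gabrd, Calb1, Calb2 and Maf were not matched.

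Peptide and calcium-binding markers of interneuron classes were counted at low numbers in these cultures, and none of the 5 tested passed. Somatostatin (Sst), the peptide of dendrite-targeting interneurons, had 17, 14 and 5 counts in antisense and 11, 5 and 9 in sense. Neuropeptide Y (Npy) had 1, 11 and 6 counts in antisense and 3, 2 and 4 in sense. Neither was tested, nor was Lamp5, which marks neurogliaform-type interneurons, with 14, 9 and 10 counts in antisense and 10, 7 and 8 in sense. Parvalbumin (Pvalb), of fast-spiking cells, had 12, 27 and 10 counts in antisense and 13, 6 and 5 in sense (0.72, interval -0.29 to 1.74). Vip, the vasoactive intestinal peptide gene, had 11, 19 and 4 counts in antisense and 20, 14 and 8 in sense (-0.60, interval -1.62 to 0.42). With these counts the intervals leave a rise of 1 log2 unit possible for Pvalb and a fall of 1 log2 unit possible for Vip. Cholecystokinin (Cck) stood at 4.86, 3.60 and 4.02 CPM in antisense and 5.85, 2.65 and 7.36 CPM in sense (-0.34, adjusted p = 0.525), with both the lowest and the highest library in the sense group. Calb1, the calbindin gene of many interneurons and of granule cells, stood at 11.7, 12.6 and 8.44 CPM in antisense and 13.1, 10.9 and 12.3 CPM in sense (-0.15, adjusted p = 0.633).

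None of the 4 transcription factors, which act in interneurons born in the medial ganglionic eminence, passed. Sox6 stood at 352.0, 345.1 and 388.5 CPM in antisense and 379.3, 393.4 and 373.7 CPM in sense; the log2 fold change was -0.08, with an interval from -0.27 to 0.11. Satb1, a chromatin organiser that acts in maturing interneurons, stood at 42.5, 39.0 and 41.1 CPM in antisense and 40.8, 49.9 and 40.4 CPM in sense (-0.10, interval -0.33 to 0.14). Unlike most members, Sox6 was highest among the antisense libraries in replicate 3. Lhx6, the LIM homeobox factor needed for parvalbumin and somatostatin cells, was the 1 member whose antisense libraries all lay above the sense libraries, at 5.79, 5.39 and 5.09 CPM in antisense and 5.06, 4.36 and 3.94 CPM in sense (0.28, SE 0.24; adjusted p = 0.46). Maf, a factor of the same lineage, averaged 17.4 ± 2.65 CPM over the antisense libraries and 18.6 ± 1.07 CPM over the sense libraries (SD, n = 3 each; -0.10, adjusted p = 0.683).

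Besides Reln, none of the tested signalling and adhesion genes passed. Erbb4, the neuregulin receptor of interneurons, stood at 106.8, 109.0 and 93.2 CPM in antisense and 116.5, 106.7 and 116.6 CPM in sense (-0.14, interval -0.34 to 0.06). Adarb2, an RNA-binding relative of the RNA editing enzymes and a marker of interneurons from the caudal ganglionic eminence, averaged 108.3 ± 11.5 CPM over the antisense libraries and 105.3 ± 6.66 CPM over the sense libraries (SD, n = 3 each; 0.04, interval -0.17 to 0.25). Nxph1, which encodes the neurexin ligand neurexophilin, averaged 44.5 ± 2.01 CPM over the antisense libraries and 46.5 ± 2.94 CPM over the sense libraries (SD, n = 3 each; -0.06). Kit, a receptor tyrosine kinase gene, averaged 18.0 ± 0.83 CPM over the antisense libraries and 20.4 ± 3.11 CPM over the sense libraries (SD, n = 3 each; -0.19, adjusted p = 0.398).

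Most members shared an order of libraries within each group. Antisense replicate 3 was the lowest antisense library for 21 of the 28 tested members (75.0%), against 30.7% of all genes tested and 34.4% of protein-coding genes. Sense replicate 1 was the highest sense library for 19 of 28 (67.9%), against 36.8% of all genes and 39.1% of protein-coding genes. Relative to each gene's mean over the 6 libraries, the median member was at -0.06, 0.03 and -0.23 log2 units in antisense replicates 1, 2 and 3 and at 0.17, -0.03 and 0.05 in sense replicates 1, 2 and 3. Marker sums of glutamatergic neurons, all neurons, astrocytes and the oligodendrocyte lineage also had antisense replicate 3 lowest and sense replicate 1 highest, while those of microglia and vascular cells were lowest among antisense libraries in replicate 2. Microglial markers ran against the other lists, at 21.0, 17.5 and 19.2 CPM in antisense and 11.9, 11.5 and 8.73 CPM in sense. Of the 3 tested, only P2ry12, a purine receptor gene of microglia, passed, and it was higher in antisense. It had 33, 28 and 30 counts in antisense and 0, 0 and 2 in sense (edgeR adjusted p = 2.18e-05). P2ry12 passed the filter on low counts only through the antisense libraries, so a call of lower was not open to it. Cx3cr1 (0.38, adjusted p = 0.338) and Csf1r (0.64, adjusted p = 0.223) did not pass, and Aif1 and C1qa were not tested. Glutamatergic markers summed to 275, 276 and 213 CPM in antisense and 420, 294 and 343 CPM in sense, and astrocyte markers to 1338, 1389 and 1119 CPM in antisense and 1668, 1294 and 1524 CPM in sense. The 5 GABAergic markers summed to 126, 129 and 94.3 CPM in antisense and 164, 122 and 127 CPM in sense. Sense replicate 1 was also the library with the largest Gas5 share (57.1%), while antisense replicate 3 (10.8%) was in the middle of its group. The part of cell makeup or of the Gas5 share in the calls of Reln and Gabbr2 was not tested.

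**Figure D3:**
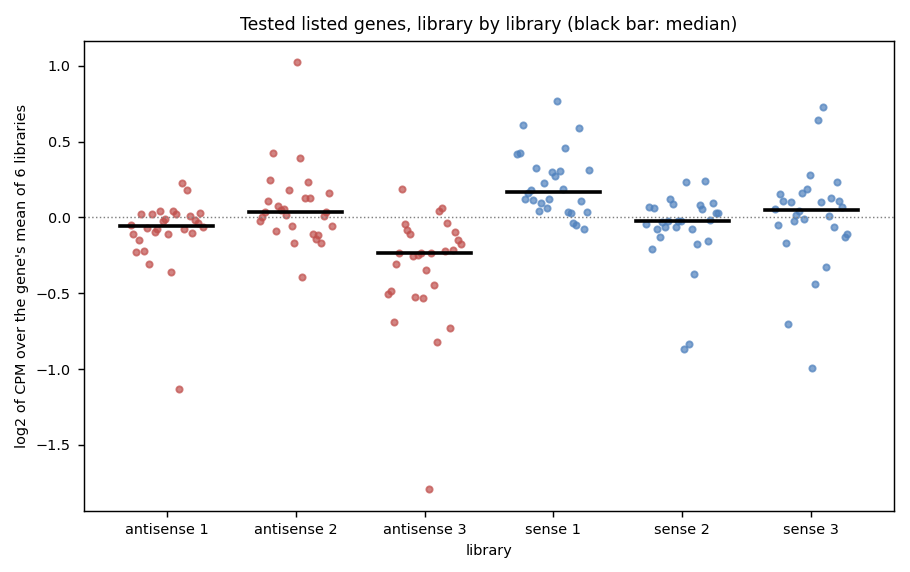
Each point is 1 of the 28 tested genes in 1 library, as the log2 of its CPM over the gene's own mean of the 6 libraries (y axis), with antisense libraries in red and sense libraries in blue. The black bar is the median, which is lowest in antisense replicate 3 (-0.23) and highest in sense replicate 1 (0.17).

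Of 38 other genes of the GABA pathway (transporters, breakdown enzymes, chloride carriers, synapse organisers, trafficking proteins and the subunit genes outside the list), 33 were tested, 3 were lower in antisense, 0 were higher and 30 missed the threshold. The share lower was 9.09%, where 4.35% of all genes were lower and 18.2% higher. Among protein-coding genes, as these 33 are, 4.78% were lower and 9.63% higher. On the TMM scale the log2 fold changes had a median of -0.21, against -0.07 over protein-coding genes. They were below 0 for 87.9% of the 33, against 51.6% of all genes and 60.9% of protein-coding genes. The groups did not overlap, with antisense lower, for 10 of them, where 13.2% of all genes and 2369 of the 14956 protein-coding genes did so. With antisense higher they did not overlap for 2, where 23.4% of all genes and 2158 of the 14956 protein-coding genes did so. The values of 2 of the 3 lower genes are given here. Aldh5a1 encodes succinic semialdehyde dehydrogenase, the last enzyme of GABA breakdown. It stood at 23.7, 25.2 and 24.0 CPM in antisense and 35.3, 32.7 and 36.0 CPM in sense, with no overlap (-0.51, SE 0.109; adjusted p = 0.00233), and passed whichever library was left out. Iqsec3, which encodes an exchange factor of inhibitory synapses that binds gephyrin, was lower at 41.4 ± 2.06 CPM over the antisense libraries and 53.0 ± 3.96 CPM over the sense libraries (SD, n = 3 each; -0.36, adjusted p = 0.0166). The call was lost on leaving out antisense replicate 1 (0.0553), antisense replicate 2 (0.0518) or sense replicate 1 (0.0593).

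A further list of 35 interneuron genes, of which 22 were tested, held 3 that were higher in antisense and 1 (4.55%) that was lower, where 18.2% of all genes were higher and 4.35% lower. The share lower was near that of all genes and the 4.78% of protein-coding genes. The share higher was below that of all genes and above the 9.63% of protein-coding genes. All of the tested genes but Dlx6os1 are protein-coding. Dlx1 and Dlx6, homeobox genes of interneuron progenitors, were higher by 2.20 (SE 0.261; adjusted p = 1.28e-05) and 1.80 (SE 0.212; adjusted p = 1.21e-05) on the log2 scale. Dlx1 stood at 10.8, 9.12 and 8.57 CPM in antisense and 1.58, 2.49 and 2.06 CPM in sense, and its span overlaps that of another gene. Of the same family, Dlx2 had 3, 2 and 4 counts in antisense and 1, 2 and 3 in sense. Dlx5 had 12, 6 and 4 counts in antisense and 5, 9 and 11 in sense, and neither was tested. Dlx6 stood at 15.0, 12.3 and 12.3 CPM in antisense and 4.11, 3.12 and 4.11 CPM in sense, while Dlx6os1, the noncoding gene whose span overlaps it, did not pass, at 17.0 ± 3.10 CPM over the antisense libraries and 17.6 ± 1.74 CPM over the sense libraries (SD, n = 3 each; -0.05, interval -0.39 to 0.29). Chrna2, a nicotinic receptor subunit gene of a somatostatin interneuron class, stood at 9.47, 11.9 and 12.7 CPM in antisense and 3.95, 5.14 and 4.62 CPM in sense (1.31, SE 0.215; adjusted p = 0.000239). Ndnf, a secreted factor gene of neurogliaform-type cells, was lower at 13.1, 10 and 11.1 CPM in antisense and 18.5, 19.3 and 16.8 CPM in sense (-0.67, SE 0.156; adjusted p = 0.00458). The 4 genes that passed, Dlx1, Dlx6, Chrna2 and Ndnf, did so whichever library was left out, and for each of them the groups did not overlap.

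By RefSeq spans, 16 of the 32 members overlapped another gene. Of the 22 overlapping genes outside the list that had a row, 11 were tested, and 5 were higher in antisense, 1 was lower and 5 did not pass, where 22.6% of all genes passed in either direction. None of the 8 members that the tested genes overlap passed, and 1 of these, Gabrd, was not tested. All 6 that passed are noncoding genes or pseudogenes, as are 9 of the 11 tested. Protein-coding genes passed less often than all genes (9.63% higher and 4.78% lower). The remaining classes therefore passed more often than 22.6%, and the 6 calls are not read as an excess at these loci. Whether counting used strand is not given in the sources used here, so reads of overlapping genes may not be told apart, and processed pseudogenes share sequence with their parent genes.

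Gm15617, a processed pseudogene on chromosome 5 from 72032702 to 72033511 within Gabrb1, had 187, 208 and 191 counts in antisense and 0, 0 and 2 counts in sense. The scaled ratio was 238.2 (95% exact interval 65.6 to 1971; edgeR adjusted p = 4.86e-09), while Gabrb1 changed by -0.02. Gm18899, a processed pseudogene on chromosome 12 from 78255413 to 78256652 within Gphn, had 22, 28 and 27 counts in antisense and 0 in each sense library. It was at least 20.9-fold higher against a floor of 3 counts over the sense group (adjusted p = 1.29e-05). Sox6os, a noncoding gene on chromosome 7 from 116031979 to 116032550 on the plus strand, opposite Sox6, had 59, 36 and 63 counts in antisense and 0, 1 and 0 in sense, a scaled ratio of 128.4 (22.7 to 5105; adjusted p = 2.06e-06). These 3 genes were present in every antisense library and near 0 in sense. They passed the filter on low counts only through the antisense libraries, so a call of lower was not open to them. Their calls held whichever library was left out, which for this reason is no separate support.

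The 3 other partners that passed were counted in both groups. Gm14735, a processed pseudogene on chromosome X from 72468945 to 72470404 within Gabra3, stood at 73.0, 84.6 and 85.3 CPM in antisense and 47.0, 63.9 and 53.4 CPM in sense (0.56, adjusted p = 0.00185). Its count ratio to Gabra3 overlapped between groups (exact permutation p = 0.7). Gm14204, a noncoding gene on chromosome 2 from 158595472 to 158610723 opposite Slc32a1, stood at 23.1, 21.6 and 24.9 CPM in antisense and 13.1, 20.1 and 13.9 CPM in sense (0.56, adjusted p = 0.0204). It starts 3463 bases from the start of Slc32a1, on the other strand. Its call was lost without antisense replicate 1 (0.0553), antisense replicate 3 (0.0609), sense replicate 1 (0.111) or sense replicate 3 (0.0978). Of 10 ratios between 2 genes of the same library tested here, 4 reached the smallest exact p of 0.1 (adjusted p = 0.25). These were the ratios of Gm15617, Gm18899, Sox6os and Gm9962 to the gene they overlap. Ratios of partners were taken only for partners already called in these same libraries. The 4 ratios therefore repeat that selection and are no separate support.

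Gm9962 was the 1 partner that was lower in antisense. This noncoding gene lies on chromosome 7 from 57387272 to 57409941 on the plus strand, opposite the end of Gabra5. It stood at 4.86, 5.78 and 5.63 CPM in antisense and 14.4, 12.2 and 16.1 CPM in sense, with no overlap (-1.38, adjusted p = 5.5e-05), and passed whichever library was left out. Its start lies 57 bases from that of Gabrg3, which runs the other way and did not pass (0.01, interval -0.28 to 0.30). The 56 bases between both starts, chr7:57387216-57387271 of GRCm38.p6 on the plus strand, are shown because both genes start at their ends and only Gm9962 passed. Capitals mark the 1 GC box, GGGCGG.
Gm9962 to Gabrg3: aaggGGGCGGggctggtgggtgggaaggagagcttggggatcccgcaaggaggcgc

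**Figure D4:**
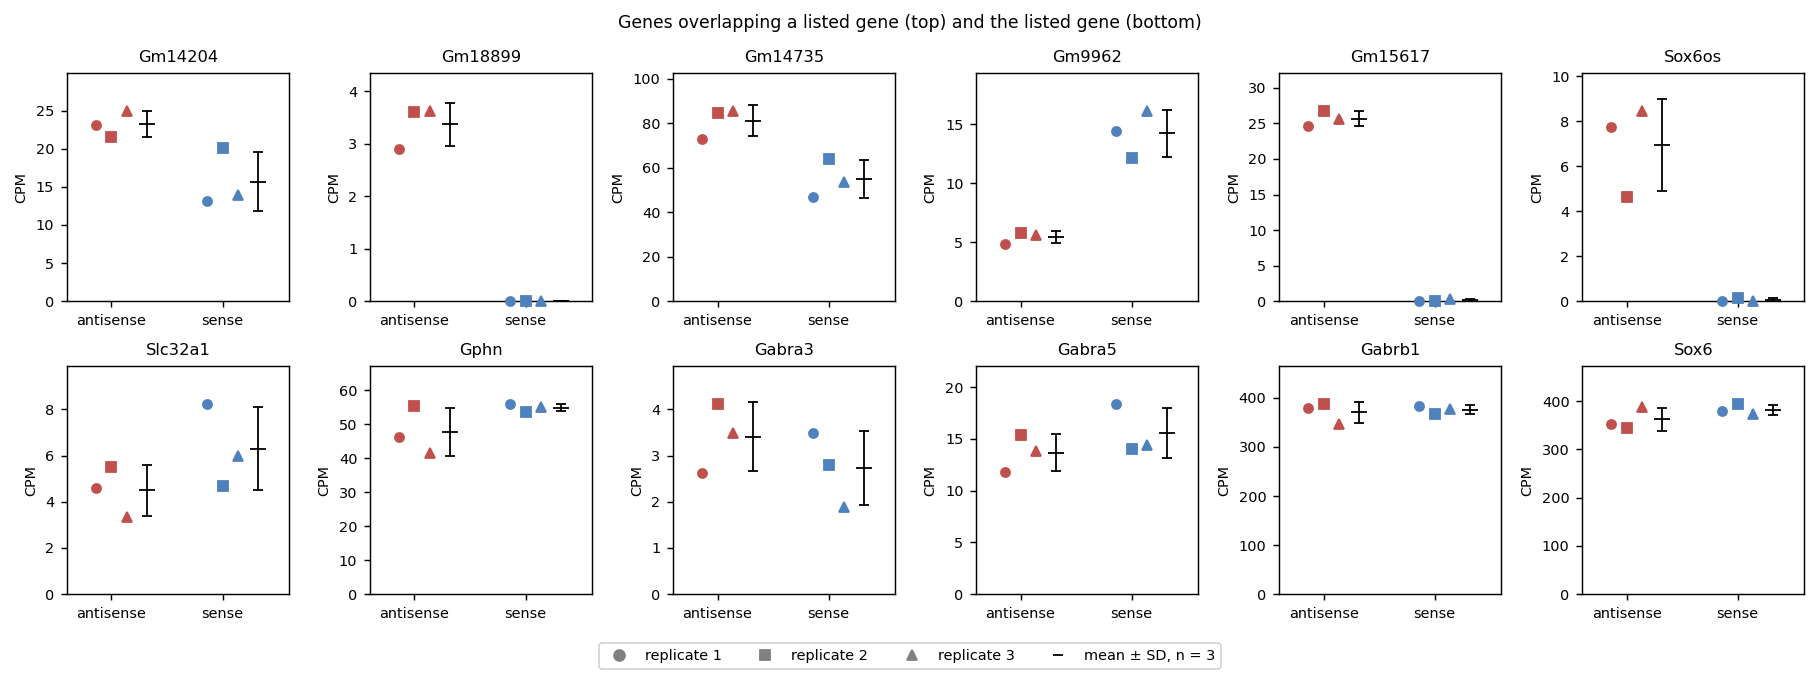
CPM on the TMM scale (y axes, from 0) of the 6 overlapping genes that passed (top) and of the listed gene each overlaps (bottom), in antisense (red) and sense (blue) libraries. Symbols mark replicate numbers and bars the mean ± SD (n = 3). Gm15617, Gm18899 and Sox6os lie at or near 0 in sense while Gabrb1, Gphn and Sox6 are counted in both groups and did not pass. Gphn averages 47.7 CPM in antisense and 54.9 CPM in sense. Gm9962 is the only one of the 6 that is lower in antisense.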

How the data were processed

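Members and lists were chosen with earlier results of these data known. The submitters' processing notes name Salmon, DESeq and GRCm38, without versions. The total RNA table holds estimated counts per gene symbol deposited by the authors. The authors' deposited table gives a mean normalised signal, log2 fold changes with standard errors and p-values, sense over antisense, and was read only for values set beside those computed here. The small RNA tables were not used here.

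Estimated counts were rounded. Genes were kept by filterByExpr (minimum count 10), TMM factors were computed on them, and edgeR 4.0.16 (R 4.3.3) tested antisense minus sense with its quasi-likelihood F test at a false discovery rate of 0.05. Standard errors are the size of the log2 fold change over the square root of F, and 95% intervals use the t quantile of the fit. Folds against 0 counts use a floor of 3 counts over the group. Ratios with 1 to 3 counts have exact intervals at 95%, and ratios within a library had 0.5 added to each count. Floors and these exact intervals cover counting error only. All 32 genes are named; those passing, and the 2 with the highest mean CPM of each role, have every library value. From the wider lists and the overlapping genes those passing are named, except 1 that is not reported here. Dlx2, Dlx5 and Dlx6os1, which were not tested or did not pass, were chosen after their values were seen.

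Spans and upstream sequences came from RefSeq tables of GRCm38.p6, matched by symbol for all 32 genes for spans and 28 for sequences. Alternatives were limma 3.58.1 (voom), DESeq2 1.42.0, other scalings and filters, a replicate block and leaving out each library. The fit was tested on simulated counts. A same-numbered pair of libraries correlated in its deviations from the group means at 0.08, -0.10 and -0.01 for replicates 1, 2 and 3. Pairs of unlike number ran from -0.18 to 0.18. The numbers thus gave no sign of pairing, and these values cannot exclude that same-numbered libraries share a culture.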

Additional observations from a re-analysis of the deposited data

How the results depend on the processing

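The count of lower members depended on the method and on single libraries. It was 2 in the edgeR fit, 1 with Gas5 left out of the totals, and 0 in DESeq2, in limma voom, at a minimum count of 50, on library totals, and among genes overlapping no other gene, where Reln and Gabbr2 were not tested because their spans overlap other genes. Leaving out a library gave 0 to 3 lower members, 0 higher, and a member median of -0.21 to -0.11. The same fits gave 3392 to 3987 higher and 492 to 1100 lower genes in all, 1 to 6 lower and 0 higher genes of the GABA pathway list, and 3 higher and 1 lower of the other interneuron list. Lower members were 0 on leaving out antisense replicate 3, sense replicate 1 or sense replicate 3, and 3 on leaving out antisense replicate 2. Lower genes in all dropped to 571, 534 and 492 on leaving out antisense replicate 1, sense replicate 1 and sense replicate 3. Lower GABA pathway genes were 5 and 6 on leaving out antisense replicate 2 and sense replicate 2, and 1 and 2 on leaving out sense replicate 1 and sense replicate 3. Without a filter 8 GABA pathway genes were lower. With a replicate block the counts were 2 lower members, 4 lower GABA pathway genes, and 3428 higher and 695 lower genes, so it changed no call on Reln or Gabbr2. A minimum count of 50 gave 1795 higher and 402 lower genes, and genes overlapping no other gene gave 829 and 213, with 0 lower in the GABA pathway list and 1 higher in the other interneuron list. Library totals, which include Gas5, moved the median of all genes to 0.70 and the median of the members to 0.56, still 0.14 below it. They gave 12804 higher and 62 lower genes (99.5% higher, against 80.7% on the TMM scale), 14 higher and 0 lower members, 13 higher and 0 lower GABA pathway genes, and 12 higher and 0 lower other interneuron genes. Log2 fold changes turned positive there for 21 of the 28 members, among them Reln (0.20), Gabbr2 (0.32), Gabbr1 (0.52), Gabra4 (0.59), Gabrb1 (0.69), Sox6 (0.62), Maf (0.61), Satb1 (0.59), Erbb4 (0.58) and Nxph1 (0.63), as for Ndnf (0.039), Aldh5a1 (0.20), Iqsec3 (0.35) and Cfap74 (0.56). Relative to the median of all genes, 22 of 28 members were lower on either scale. Dlx1, Dlx6, Chrna2, Gm15617, Gm18899, Gm14735 and Sox6os passed as higher in each alternative that tested them. Gm9962 passed as lower in all but library totals (adjusted p = 0.0558). With counts at or near 0 in sense, Gm15617, Gm18899 and Sox6os could not be called lower, so this is no separate support for them.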
